A study of Mus musculus with 34 samples.

Results

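Binding sites of JunB were compared between macrophages of 2 inbred mouse strains, C57BL/6 and BALB/cJ, 1 h after activation with Kdo2 lipid A (KLA), to ask which JunB sites the strains have in common and which are found in one strain alone. The sites were taken from the ChIP-seq peak lists whose labels give JunB as the antigen (antibody sc-73), KLA for 1 h as the treatment and C57Bl/6EiJ or Balb/cJ as the genotype. The C57BL/6 list held 13375 peaks and the BALB/cJ list 21667, among 596383 peaks in all lists of the series. Overlap of 1 bp or more joined peaks of both strains into a locus, which gave 24439 JunB loci.

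The series maps monomers of the AP-1 family in thioglycollate elicited macrophages (TGEMs), primary macrophages that are recruited into the peritoneal cavity of mice. Both groups were TGEMs of male mice of the same age with no deletion or transgene named in the labels, cultured and treated with KLA in the medium. The labels spell the first strain C57Bl/6EiJ, the study's methods C57Bl/6J, and it is called C57BL/6 here. Each strain had 1 deposited JunB list, made by the authors from replicate ChIP experiments, and the number of animals behind it is not given in the sources used here.

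JunB is a member of the Jun subfamily of AP-1. It binds DNA only as a dimer, with partners such as Fos, ATF3 or another Jun protein, and each monomer of the dimer contacts one side of a palindromic site. Toll-like receptor 4 (TLR4) senses lipid A, and its signaling through MAP kinases and NFκB induces JunB as an immediate-early gene product. PU.1 and CEBP proteins are lineage factors at many macrophage enhancers, where AP-1 dimers also bind.

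Few JunB peaks were listed before activation. The lists with vehicle (Veh) held 463 JunB peaks in C57BL/6 and 9 in BALB/cJ, and 234 of the 10582 loci shared between strains after KLA overlapped a Veh peak of C57BL/6. Loci lay nearest to each of the 5 macrophage genes examined, with 8 near Csf1r, 4 near Adgre1, 6 near Spi1 and 1 each near Itgam and Cd68. Among the lymphocyte genes chosen as markers, Cd3e had 1 BALB/cJ-only locus with a count of 28, while Cd4, Cd8a and Pax5 had none. Another lymphocyte gene, Ms4a1, had 1 shared and 1 BALB/cJ-only locus, with highest counts of 41 in C57BL/6 and 62 in BALB/cJ. Peak lists hold no expression, so the markers describe binding near these genes only.

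The reference sequences of 6 strong strain-specific loci are shown, because they are where a JunB peak of high count in one strain had no JunB peak of the other strain over it. Each is the central 200 bases of a locus on the plus strand of GRCm38, the C57BL/6J reference, from the RefSeq genome file. BALB/cJ alleles were not read. They are the 3 strongest loci of each class whose window holds no annotated exon, which passed over the locus near Marcks. Capitals mark exact matches to the TRE form of the AP-1 motif (TGACTCA or TGAGTCA, each the reverse complement of the other). Searches also covered the CRE form (TGACCTCA, TGACGTCA, TGAGCTCA, TGAGGTCA), the PU.1 sequence ACTTCCT and 8 CEBP octamers (TTACACAA, TTACATAA, TTACGCAA, TTACGTAA, TTGCACAA, TTGCATAA, TTGCGCAA, TTGCGTAA) on both strands, and none of these lay in the 6 windows. The first 3 loci were C57BL/6-only.
Sirt4 locus, chr5:115493085-115493284: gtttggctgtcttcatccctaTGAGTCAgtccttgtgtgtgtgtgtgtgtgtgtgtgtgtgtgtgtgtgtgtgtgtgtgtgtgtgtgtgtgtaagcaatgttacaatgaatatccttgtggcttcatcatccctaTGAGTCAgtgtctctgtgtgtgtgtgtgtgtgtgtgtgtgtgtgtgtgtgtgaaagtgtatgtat
Gm19410 locus, chr8:35716566-35716765: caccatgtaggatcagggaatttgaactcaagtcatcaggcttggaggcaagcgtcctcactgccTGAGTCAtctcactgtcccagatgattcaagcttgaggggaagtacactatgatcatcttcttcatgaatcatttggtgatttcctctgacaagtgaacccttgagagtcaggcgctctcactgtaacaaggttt
Metap2 locus, chr10:93944318-93944517: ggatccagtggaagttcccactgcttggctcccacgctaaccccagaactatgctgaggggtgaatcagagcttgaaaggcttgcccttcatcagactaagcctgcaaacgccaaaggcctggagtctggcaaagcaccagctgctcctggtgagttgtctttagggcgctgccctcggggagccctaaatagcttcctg
The other 3 were BALB/cJ-only.
Cdc42bpg locus, chr19:6297702-6297901: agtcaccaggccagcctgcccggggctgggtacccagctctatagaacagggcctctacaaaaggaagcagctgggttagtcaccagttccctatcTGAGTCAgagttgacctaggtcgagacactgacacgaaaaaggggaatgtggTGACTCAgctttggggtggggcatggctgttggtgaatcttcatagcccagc
Ankrd28 locus, chr14:31768633-31768832: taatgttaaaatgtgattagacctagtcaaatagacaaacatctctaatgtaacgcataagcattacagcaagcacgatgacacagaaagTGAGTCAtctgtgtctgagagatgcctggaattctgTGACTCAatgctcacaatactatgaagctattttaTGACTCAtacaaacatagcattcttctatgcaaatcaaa
Lilr4b locus, chr10:51416674-51416873: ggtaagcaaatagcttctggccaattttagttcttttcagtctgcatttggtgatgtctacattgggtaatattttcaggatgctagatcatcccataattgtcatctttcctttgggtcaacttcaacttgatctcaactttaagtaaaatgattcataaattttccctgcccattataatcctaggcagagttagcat
TRE matches were present in both classes, with 2 at the Sirt4 locus, 1 at the Gm19410 locus, 2 at the Cdc42bpg locus and 3 at the Ankrd28 locus. The Metap2 and Lilr4b windows held none, and their best site matched 6 of 7 positions of the TRE. The Sirt4 window also holds long runs of alternating t and g.

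Most JunB peaks of C57BL/6 were also found in BALB/cJ, whereas most peaks found in one strain alone came from the longer BALB/cJ list. Of the 24439 loci, 10582 (43.3%) were shared, 2787 (11.4%) were C57BL/6-only and 11070 (45.3%) were BALB/cJ-only. A BALB/cJ peak overlapped 79.2% of the C57BL/6 peaks (95% Wilson interval 78.5% to 79.8%), and a C57BL/6 peak overlapped 48.9% of the BALB/cJ peaks (48.2% to 49.6%). All intervals here cover counting error only, since each strain has 1 list and loci are not replicates, and no p-values were computed.

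The BALB/cJ list was longer and carried more counts. Its peak counts summed to 1142797, with a median of 42 and a maximum of 242, against a sum of 541268, a median of 34 and a maximum of 202 in C57BL/6. The sequencing depth of the libraries was not analysed here, so list length and depth cannot be told apart from strain. When the BALB/cJ list was reduced to its 13375 peaks of highest count, which all had a count of 35 or more, the strain-specific classes became equal in size. Then 8981 of 17752 loci were shared (50.6%), 4388 were C57BL/6-only (24.7%) and 4383 were BALB/cJ-only (24.7%), and 67.2% of the C57BL/6 peaks were shared (66.4% to 68.0%). A C57BL/6-only locus of this setting can overlap a BALB/cJ peak that the reduction left out.

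Strong JunB peaks were mostly shared and weak ones were not. In C57BL/6, 44.8% of the peaks in the lowest decile by count overlapped a BALB/cJ peak, and 98.9% in the highest decile did. In BALB/cJ the same share went from 9.14% to 92.3%. Strain-specific peaks therefore sat low in their own lists, with a median count of 24 at C57BL/6-only loci against 38 in C57BL/6 at shared loci, and of 31 at BALB/cJ-only loci against 61 in BALB/cJ at shared loci. Above percentile 80 of their own list lay 45 C57BL/6-only loci (1.61%) and 539 BALB/cJ-only loci (4.87%).

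**Figure D1:**
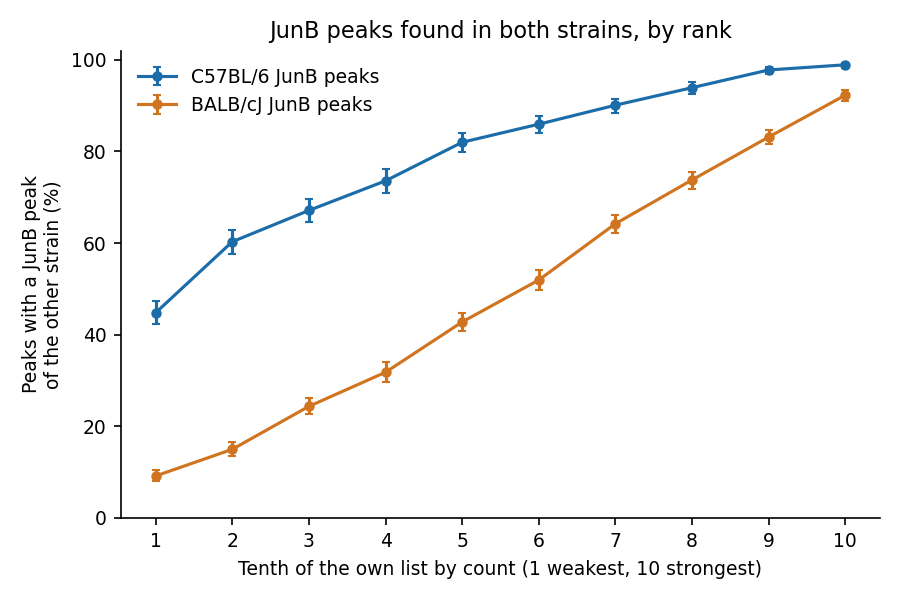
Percentage of JunB peaks that overlap a JunB peak of the other strain (y axis) in each decile of the own list by count (x axis, 1 weakest), with 95% Wilson intervals. The C57BL/6 line goes from 44.8% to 98.9% and the BALB/cJ line from 9.14% to 92.3%.

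Over the 10582 shared loci, the percentile ranks by count of both strains had a Spearman rho of 0.78, given as a description across loci of 2 lists. The median rank was 58.5 in C57BL/6 and 71.2 in BALB/cJ, and the ranks of one locus differed by a median of 11.4 percentile points. At 354 loci the difference exceeded 50 points, with BALB/cJ higher at 320 of them and C57BL/6 higher at 34. With lists of equal length these numbers were 320 and 0, but the percentile ranks were still those in the whole lists. The cut removed only weak BALB/cJ peaks, so it could not lower the 320 and is no check of list length. The scaled IDR score, which reaches its maximum of 1000 at many peaks, gave a rho of 0.41.

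**Figure D2:**
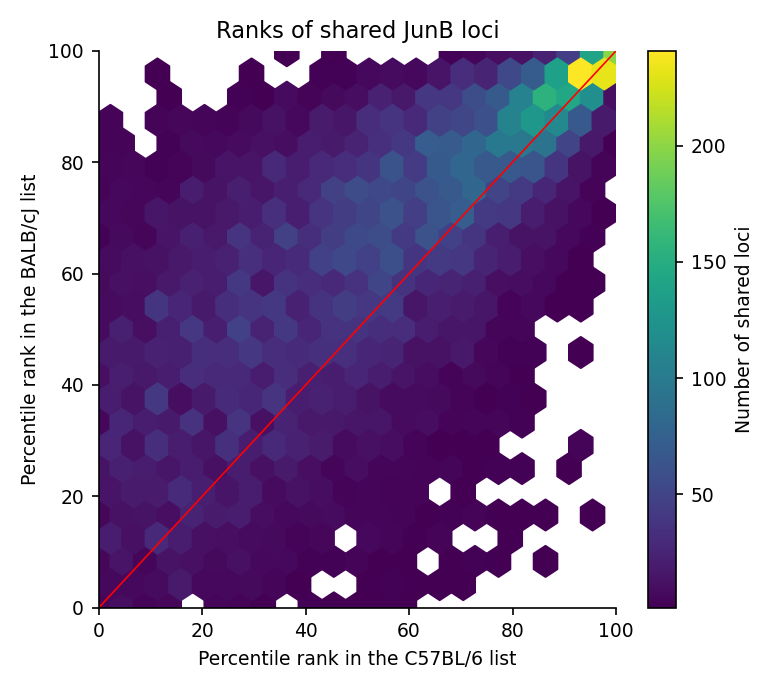
Number of shared JunB loci (color) by percentile rank in the C57BL/6 list (x axis) and in the BALB/cJ list (y axis), with the line of equal rank in red. Loci crowd in the upper right corner, where both ranks are high, and more lie above the line than below it.

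The strongest shared loci ranked at the top of both lists. The locus nearest to Itga5, which encodes a fibronectin receptor subunit, had a JunB count of 202 in C57BL/6 and 234 in BALB/cJ (chr15:103370515-103370749, intergenic, 3.87 kb upstream of the TSS). The locus nearest to Btg1, an antiproliferative gene, had counts of 189 and 238, and the one nearest to Chst11, which encodes a chondroitin sulfotransferase, had 175 and 237. The loci nearest to Mrpl39 and Tmcc3 had 167 and 240, and 183 and 225. Counts are not scaled between libraries, and at all 5 loci both strains lay among their highest values. At the Itga5 locus no Fos peak was listed in either strain and no ATF3 peak in BALB/cJ, and the Mrpl39 locus had no Jun peak in C57BL/6.

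At the 8 loci where JunB ranks differed most, 4 in each direction, the rank of ATF3 differed in the same direction. A locus in an intron of Steap3, which encodes a metalloreductase, had a JunB count of 84 in C57BL/6 and 26 in BALB/cJ. There ATF3 ranked at percentile 96.5 in C57BL/6 and 52.4 in BALB/cJ, and JunD at 92.6 and 9.50. Loci in introns of Qpct (62 and 22) and Plcl1 (52 and 22) and near Tlx1 (67 and 25) were the other 3 with the higher rank in C57BL/6, and none of the 4 had a Jun peak in BALB/cJ. In the opposite direction, a locus near Cd300ld, which encodes an immune receptor of myeloid cells, had a JunB count of 17 in C57BL/6 and 93 in BALB/cJ. ATF3 ranked there at percentile 54.4 in C57BL/6 and 90.4 in BALB/cJ, and JunD at 55.5 and 94.5. The loci near Pxn (21 and 130), Ccl6 (17 and 84) and B4galt6 (17 and 84) followed. At the Pxn locus JunD ranked at 75.5 and 98.8, while at the B4galt6 locus the JunD ranks were 78.4 and 77.9.

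The 8 strongest C57BL/6-only loci had peaks of other monomers in C57BL/6, and at 3 of them no other monomer had a peak in BALB/cJ. The locus 8.46 kb upstream of Sirt4, a mitochondrial sirtuin gene, had the highest JunB count of the class, 90 (chr5:115493051-115493318, intergenic). Counts there in C57BL/6 were 300 for ATF3, 69 for Jun, 799 for JunD and 153 for Fos, and in BALB/cJ 201 for ATF3, 64 for Jun and 246 for Fos, with no JunD or JunB peak after KLA. It lies close to the Pxn locus (chr5:115497005-115497305), which ranked higher in BALB/cJ, and the nearest BALB/cJ JunB peak was 1.04 kb away. The locus 49.1 kb upstream of Gm19410 also had a JunB count of 90, and its ATF3 count was 226 in C57BL/6 and 25 in BALB/cJ.

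The loci near Metap2, Hivep2 and Tmem260 were those with no ATF3, Jun, JunD or Fos peak in BALB/cJ. The Metap2 locus lies in an intron of Vezt (chr10:93944220-93944614) and had counts of 78 for JunB, 155 for ATF3, 51 for Jun, 673 for JunD and 149 for Fos in C57BL/6. The Hivep2 locus, 30.2 kb upstream of a gene for a zinc finger transcription factor, had 77 for JunB and 594 for JunD. The Tmem260 locus had 77 for JunB and 697 for JunD, and the nearest BALB/cJ JunB peak was 209 kb away. The remaining loci lay near Mdfi (77), Gpr176 (76) and Marcks (85). The Marcks locus was the one of the 8 without a Jun peak in C57BL/6, and a BALB/cJ JunB peak lay 0.259 kb from the center without overlapping it. A TRE match was in 4 of the 8 windows, and 7 had a PU.1 peak in C57BL/6.

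The strongest BALB/cJ-only loci, of which 7 are described, looked different, since ATF3, Jun, JunD and Fos all had a peak in C57BL/6 at each of them. They also ranked higher, at JunB percentiles of 98.6 to 99.9 in their list, against 92.4 to 95.9 for the C57BL/6-only loci in theirs. The part of rank and list length in this contrast was not tested. The strongest lay in an intron of Ehd1, 8.65 kb upstream of Cdc42bpg, which encodes a kinase (chr19:6297681-6297922), with a JunB count of 220 in BALB/cJ. In C57BL/6 the counts there were 397 for ATF3, 129 for Jun, 1099 for JunD and 284 for Fos, and the JunD peak was the highest of its whole list. The corresponding BALB/cJ counts were 313, 135, 290 and 452. A C57BL/6 JunB peak lay 0.744 kb away.

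The next lay in an intron of Ankrd28, with a JunB count of 197 in BALB/cJ, and its JunD peak ranked at percentile 99.7 in C57BL/6. The locus 63.9 kb upstream of Lilr4b, a gene of the leukocyte immunoglobulin-like receptor family, had a JunB count of 188, and its ATF3 peak ranked at 99.7 in C57BL/6. Counts of JunB were 174 near Tes and 172 in an intron of Slx4ip. The locus 38.04 kb upstream of Tnfrsf11a, the gene of the receptor RANK, lay in an intron of Relch and had 164, and the one near Kdm7a, a histone demethylase gene, had 160. The placement of reads among similar copies, such as those a gene family like that of Lilr4b may hold, was not tested.

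**Figure D3:**
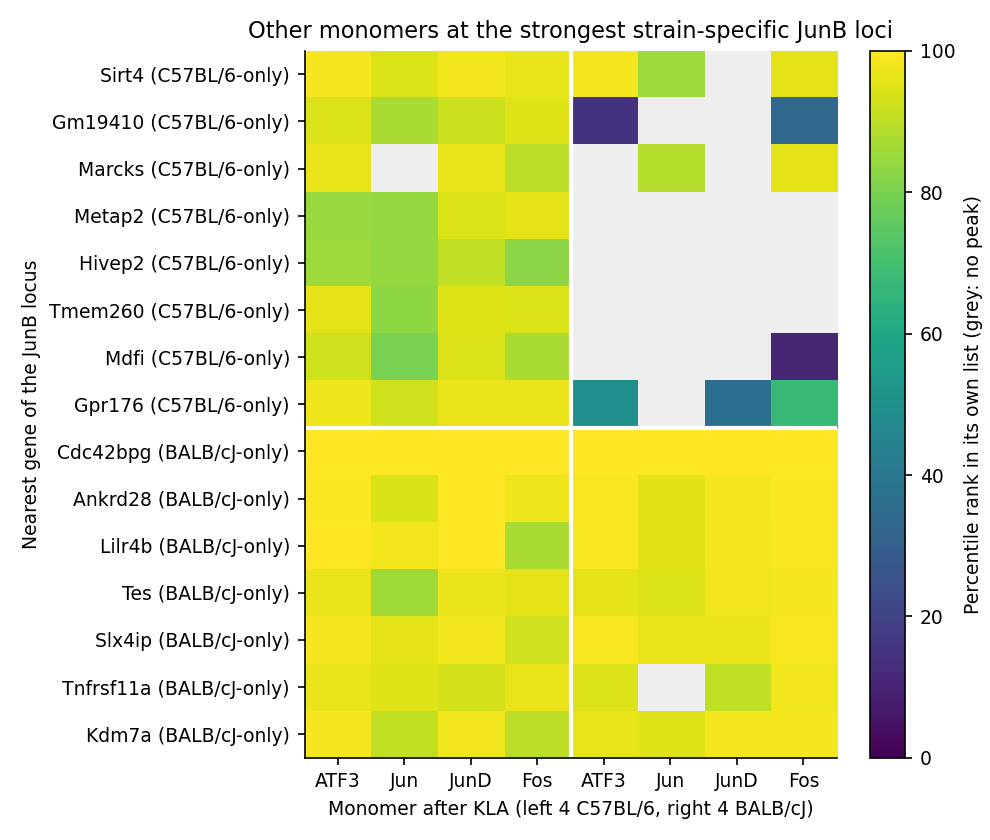
Percentile rank in its own list (color; grey where no peak was listed) of ATF3, Jun, JunD and Fos after KLA in C57BL/6 (left 4 columns) and BALB/cJ (right 4 columns) at the 8 strongest C57BL/6-only (top) and 7 of the strongest BALB/cJ-only JunB loci (bottom). Grey cells fill most of the BALB/cJ side of the top rows, while the bottom rows have peaks in both strains except for Jun at the Tnfrsf11a locus.

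The contrast was also counted over the 45 and 539 strain-specific loci above percentile 80 of their own list, a cutoff chosen after the data were seen. These include the loci named above, so the count is not independent of them. Of the 45 C57BL/6-only loci, 12 (26.7%) had none of the 4 other monomers in BALB/cJ. Of the 539 BALB/cJ-only loci, 17 (3.15%) had none of them in C57BL/6. The difference in loci with any of the 4 in the strain without the JunB peak was -23.5 percentage points (95% Newcombe interval -37.9 to -12.7). Over strain-specific loci of any rank it was only -2.16 points (-3.68 to -0.708), from 84.5% of C57BL/6-only and 86.6% of BALB/cJ-only loci. For ATF3, whose lists had nearly the same length in both strains (36745 and 36821 peaks), the shares were 66.7% and 94.99% (difference -28.3 points, -43.0 to -16.2). For JunD they were 44.4% and 92.9% (difference -48.5 points, -62.1 to -33.9).

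Most strain-specific JunB loci of any rank still carried another AP-1 monomer in both strains. At least 1 of ATF3, Jun, JunD and Fos had a peak in both strains at 81.2% of the C57BL/6-only loci (79.7% to 82.6%), at 84.8% of the BALB/cJ-only loci (84.2% to 85.5%) and at 99.7% of the shared loci. In C57BL/6 alone they had one at 12.0% of C57BL/6-only loci, and in BALB/cJ alone at 10.97% of BALB/cJ-only loci. No peak of the 4 was listed in either strain at 98 C57BL/6-only loci (3.52%), 267 BALB/cJ-only loci (2.41%) and 2 shared loci.

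Taking the monomers one by one, ATF3, a partner of Jun proteins that is also induced by TLR4, had a peak at 83.7% of C57BL/6-only loci in C57BL/6 and at 67.9% in BALB/cJ. At BALB/cJ-only loci its shares were 78.8% in C57BL/6 and 82.1% in BALB/cJ. JunD, a Jun protein also present in resting cells, had shares of 80.4% and 50.3% at C57BL/6-only loci and of 72.9% and 80.1% at BALB/cJ-only loci. Fos, which dimerizes with Jun proteins but not with itself, had 72.7% and 75.5% at C57BL/6-only loci and 53.6% and 87.9% at BALB/cJ-only loci. The Fos list was itself longer in BALB/cJ (40459 peaks against 24365), and this was the one monomer of the 4 with the higher share in BALB/cJ at C57BL/6-only loci. Jun had 44.8% and 14.5% at C57BL/6-only loci and 37.9% and 27.4% at BALB/cJ-only loci, with the longer list in C57BL/6 (17480 against 11317).

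**Figure D4:**
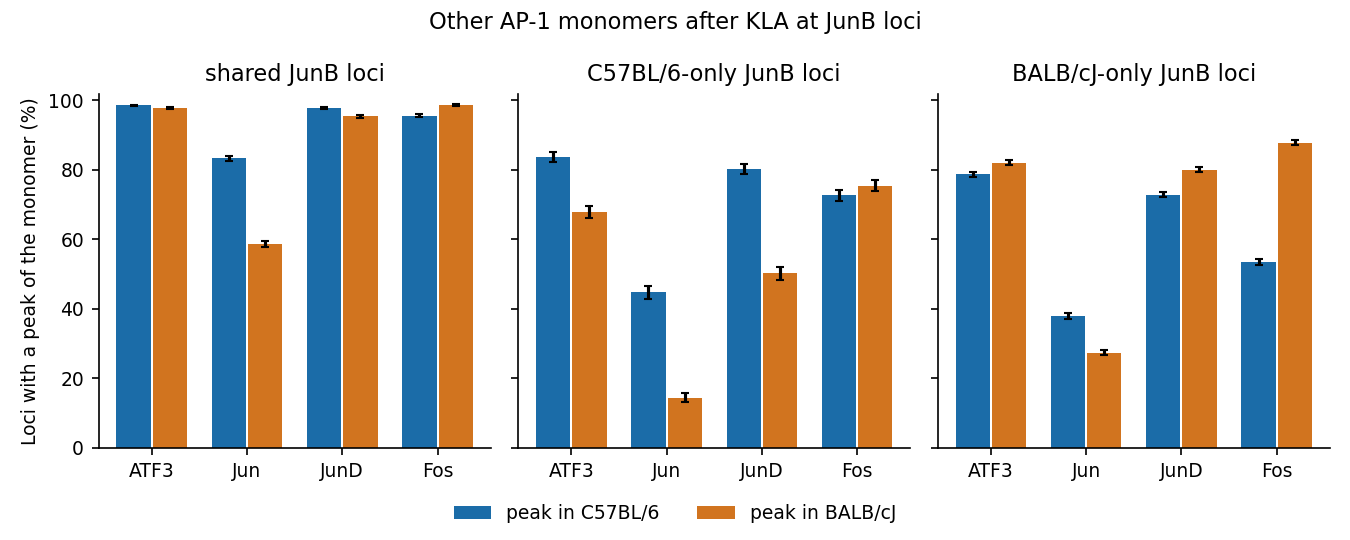
Percentage of shared, C57BL/6-only and BALB/cJ-only JunB loci (panels) with a peak of ATF3, Jun, JunD or Fos after KLA (x axis) in C57BL/6 (blue) and BALB/cJ (orange), with 95% Wilson intervals. ATF3 and JunD bars at C57BL/6-only loci fall from 83.7% and 80.4% in C57BL/6 to 67.9% and 50.3% in BALB/cJ.

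With the lists of each monomer at equal length between strains, ATF3 and JunD had a peak in both strains less often at C57BL/6-only than at BALB/cJ-only loci. ATF3 had a peak in both strains at 70.4% of 4388 C57BL/6-only loci and at 87.5% of 4383 BALB/cJ-only loci, and JunD at 56.4% and 82.9%. With only the JunB lists equalized, the share with ATF3 in the strain with no JunB peak kept was 76.2% at C57BL/6-only and 91.6% at BALB/cJ-only loci. The difference was -15.4 points (-16.9 to -13.9), against -10.9 points (-12.8 to -9.03) with whole lists. For the equalized JunB lists it was -26.3 points for JunD (-27.9 to -24.6) and -41.6 points for Jun (-43.5 to -39.7). The Jun list was then still longer in C57BL/6 (17480 peaks against 11317). With the Jun lists also equal, C57BL/6-only loci had Jun in both strains at 7.54% and in BALB/cJ alone at 12.1%. BALB/cJ-only loci had it in both strains at 23.2% and in C57BL/6 alone at 19.7%, so the gap was smaller. With its whole lists, Fos went in the opposite direction, with 7.37 points (5.66 to 9.06). With the Fos lists also equal, C57BL/6-only loci had Fos in both strains at 56.6% and in BALB/cJ alone at 8.68%. BALB/cJ-only loci had it in both strains at 73.3% and in C57BL/6 alone at 1.98%, so Fos then went the same way. C57BL/6-only loci numbered 4388 here against 2787 with whole lists, so some of them overlap a BALB/cJ JunB peak that was left out. The BALB/cJ list was cut to its strongest peaks, while the C57BL/6 list kept its weak ones.

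Occupancy before activation was highest at shared loci in both strains. ATF3, Jun or JunD had a Veh peak in C57BL/6 at 78.5% of shared, 55.8% of C57BL/6-only and 50.9% of BALB/cJ-only loci. In BALB/cJ the shares were 78.6%, 47.9% and 58.8%. Taken singly, ATF3 had a Veh peak at 47.0% of C57BL/6-only loci in C57BL/6 and 28.2% in BALB/cJ, Jun at 31.9% and 18.2%, and JunD at 42.4% and 42.6%. At BALB/cJ-only loci the shares in C57BL/6 and BALB/cJ were 42.7% and 40.7% for ATF3, 28.3% and 23.8% for Jun, and 35.2% and 51.3% for JunD. Only JunD, whose Veh list was also the longer one in BALB/cJ (28652 peaks against 19653), thus had the higher prior share at BALB/cJ-only loci in BALB/cJ. With lists of equal length the order of the strain-specific classes in C57BL/6 turned, with Veh peaks at 48.1% of C57BL/6-only and 57.3% of BALB/cJ-only loci for ATF3, 31.9% and 40.7% for Jun, and 42.8% and 47.0% for JunD. The lineage factors were read in C57BL/6 alone, with PU.1 peaks after KLA at 72.5%, 52.9% and 50.4% of shared, C57BL/6-only and BALB/cJ-only loci and CEBPα peaks at 50.6%, 27.6% and 27.2%. FosL2, another Fos subfamily member, had 57.2%, 26.0% and 19.4%. In equal-length lists BALB/cJ-only loci stood above C57BL/6-only loci for all 3, by 60.0% to 53.4% for PU.1, 39.4% to 28.5% for CEBPα and 32.1% to 26.0% for FosL2. The equal-length values for Veh peaks and these factors set BALB/cJ peaks with a count of 35 or more against a C57BL/6 list that kept its weak peaks. The part of peak strength in them was not tested.

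JunB loci were mostly distal to genes. Within 1 kb of the TSS of a protein-coding gene lay 7.42% of shared loci (6.93% to 7.93%), 10.98% of C57BL/6-only loci (9.87% to 12.2%) and 11.8% of BALB/cJ-only loci (11.3% to 12.5%). Strain-specific loci thus lay more often near a TSS than shared ones, by 3.56 points in C57BL/6 (2.34 to 4.87) and by 4.42 points in BALB/cJ (3.64 to 5.21). At equal list lengths the differences were 2.59 points (1.57 to 3.64) and 1.71 points (0.722 to 2.74). Both strain-specific classes are rich in weak peaks, and promoter-proximal peaks were more frequent among weak ones: 11.4% of the lowest C57BL/6 decile and 4.88% of the highest lay within 1 kb. Within deciles, the C57BL/6-only share was above the shared one in 7 of 10 C57BL/6 deciles, at 13.6% against 8.31% in the lowest, and below it in 3, at 2.67% (2 of 75 loci) against 6.72% in the eighth. The BALB/cJ-only share was above the shared one in 6 of 10 BALB/cJ deciles, at 14.6% against 9.42% in the lowest, and below it in 4, at 2.96% against 4.49% in the highest. Introns held 46.7% of shared, 44.2% of C57BL/6-only and 47.5% of BALB/cJ-only loci, and the median distance to a TSS was 20.6, 18.4 and 17.99 kb.

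Among promoter-proximal loci, named here after their values were seen, the strongest shared ones lay at Stk40 (111 in C57BL/6 and 157 in BALB/cJ), a gene for a serine/threonine kinase-like protein, at Gm5475 (109 and 159) and at Trib1 (124 and 137), a Tribbles pseudokinase gene. The strongest C57BL/6-only one lay 87 bp upstream of a TSS of Irf5, a transcription factor of TLR responses, with a JunB count of 71 (chr6:29529093-29529298). In BALB/cJ this locus had ATF3, Jun, JunD and Fos peaks with counts of 144, 64, 136 and 264 and no JunB peak. Mapre2, a microtubule-binding protein gene, had a C57BL/6-only count of 55 in its promoter region, and the promoter of Mndal, an interferon-inducible gene of the Ifi200 family, had 53. The strongest BALB/cJ-only ones lay at Elmo1 (157), which acts in Rac activation during engulfment, at Klra2 (156) and at Hcar2 (108), which encodes a niacin receptor. All 3 had ATF3, Jun, JunD and Fos peaks in C57BL/6.

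Most of the genes listed for macrophages and their TLR4 response had JunB loci, in lists that also covered MHC genes and lymphocyte markers. The 13 lists of genes, chosen with earlier results of these data known, held 199 symbols, of which 196 were matched to GENCODE genes. Of these, 165 (84.2%) were the nearest gene of a JunB locus, against 32.6% of all 21911 protein-coding genes. A shared locus was nearest to 71.4% of them (19.8% of all genes), a C57BL/6-only locus to 34.7% (9.27% of all genes) and a BALB/cJ-only locus to 64.8% (23.5% of all genes). By class, their 1139 loci were 49.6% shared (46.7% to 52.5%), 10.7% C57BL/6-only and 39.7% BALB/cJ-only, against 43.3%, 11.4% and 45.3% over all loci. In equal-length lists a shared locus was nearest to 68.4% of the listed genes (17.6% of all genes), a C57BL/6-only locus to 46.4% (13%) and a BALB/cJ-only locus to 48.5% (12%). Within 50 kb of a TSS, 48.5% of the listed genes had a C57BL/6-only locus (16.7% of all genes) and 85.7% a BALB/cJ-only locus (39.1%).

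Among AP-1 genes, Fos had 21 loci, of which 15 were shared, 3 C57BL/6-only and 3 BALB/cJ-only, and its strongest locus had a count of 153 in C57BL/6 and 197 in BALB/cJ. Jun had 15 loci, 7 of them shared and 7 BALB/cJ-only, and Atf3 had 15 with 9 shared. Batf, which encodes a Jun partner, had 5 with 2 shared. Of the cytokine genes 20 of 21 had a locus, each of these with a shared one. Il1a had 14 loci, 5 of them shared, and its strongest had counts of 136 and 220 (10.4 kb upstream of the TSS). Il1b had 5 shared and 6 BALB/cJ-only loci, Lif 9 shared and 3 BALB/cJ-only, and Il1rn, the receptor antagonist gene, 3 shared and 2 BALB/cJ-only. Of the chemokine genes 16 of 17 had a locus, and Ccl2 (9 of 13 loci), Ccl5 (8 of 10), Ccl9 (3 of 7) and Cxcl1 (6 of 16) all had shared ones. The 10 other Cxcl1 loci were BALB/cJ-only, and at equal list lengths Cxcl1 had 4 such loci.

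The NFκB genes and their feedback inhibitors had 149 loci, 72 of them BALB/cJ-only (48.3%) and 15 C57BL/6-only (10.1%), against 45.3% and 11.4% over all loci. At equal list lengths the shares were 32.5% and 16.7%, against 24.7% and 24.7%. Tnfaip3, which encodes the deubiquitinase A20, had 15 shared, 6 C57BL/6-only and 13 BALB/cJ-only loci. Nfkbia, the IκBα gene, had 8 shared and 7 BALB/cJ-only loci, and Tnip1 had 8 shared, 1 C57BL/6-only and 6 BALB/cJ-only. Rel, an NFκB subunit gene, had 9 BALB/cJ-only and 2 shared loci, and at equal list lengths 4 and 2. Of the TLR4 receptor and adaptor genes, 10 of 13 had a locus. Tlr4 itself had 4 shared, 1 C57BL/6-only and 5 BALB/cJ-only loci, its co-receptor gene Cd14 had 2 shared and 3 BALB/cJ-only, and the kinase gene Irak2 had 4 shared, 1 C57BL/6-only and 3 BALB/cJ-only. Ticam2, an adaptor gene, had 1 of each class.

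The MAP kinase phosphatase gene Dusp1 had 10 shared, 4 C57BL/6-only and 3 BALB/cJ-only loci, and the 4 C57BL/6-only ones, with counts of 17 to 41, lay in an annotated intron of the gene, 1.07 to 4.80 kb upstream of the nearest TSS. Dusp4 had 11 shared, 5 C57BL/6-only and 15 BALB/cJ-only loci. Among other immediate-early genes, Klf6 had 40 BALB/cJ-only loci of 63, while Myc had 14 shared, 8 C57BL/6-only and 7 BALB/cJ-only and Ier5 had 9 shared and 6 BALB/cJ-only. Of the macrophage transcription factor genes, Runx1 had 21 shared loci of 33, Cebpb 15 of 22, Maf 12 of 21 and Mitf 7 of 16. Among the surface receptor genes, Cd36, a scavenger receptor gene, stood out by count. Its 3 strongest loci were BALB/cJ-only with counts of 123, 156 and 150, and in C57BL/6 these had ATF3 counts of 301, 370 and 355 and JunD counts of 840, 781 and 914.

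The inflammatory enzyme genes had 34 shared, 2 C57BL/6-only and 33 BALB/cJ-only loci. At equal list lengths 6 of 57 were C57BL/6-only (10.5%) and 21 BALB/cJ-only (36.8%), against 24.7% and 24.7% over all loci. Acod1, the itaconate synthesis gene, had 7 shared and 3 BALB/cJ-only loci, Ptgs2, the cyclooxygenase-2 gene, 5 and 3, Ptges 4 and 2, and Arg2 2 and 1. Interferon response genes had 17 shared, 3 C57BL/6-only (8.57%) and 15 BALB/cJ-only loci (42.9%), near the 11.4% and 45.3% over all loci, with Rsad2 at 4, 0 and 3. Of the 19 MHC genes of the H2 region, which differ in haplotype between these strains, 9 had a locus. Of the 13 lymphocyte marker genes, 2 had one, Cd3e and Ms4a1.

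Over all genes, Lpp had 65 loci (26 shared, 4 C57BL/6-only, 35 BALB/cJ-only), Klf6 63 and Trib1 55. C57BL/6-only loci were most numerous at Bach2, Cd44, Marcks, Myc, Tns3 and Tomm20, with 8 each. Tomm20 had 28 shared and 1 BALB/cJ-only loci beside them. The nearest gene is an assignment by distance and not evidence of regulation.

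Strain-specific loci lay next to loci of their own class slightly more often than their overall share. After a C57BL/6-only locus the next along the chromosome was C57BL/6-only in 14.4% of cases (13.1% to 15.7%), against 11.4% over all pairs of neighbors. After a BALB/cJ-only locus the next was BALB/cJ-only in 49.1% (48.1% to 50.0%), against 45.3%. With neighbors at least 10 kb apart the shares were 14.9% against 12.5% and 50.7% against 48.4%, and at equal list lengths 28.5% against 24.7% and 29.3% against 24.7%.

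Strain-specific loci were also counted in windows of 1 Mb. The window with most C57BL/6-only loci was chr7:80000000-81000000, with 13 of 65 loci, 5 of them nearest to Iqgap1, a scaffold protein gene. In chr8:35000000-36000000, 12 of 26 loci were C57BL/6-only, 5 of them nearest to Tnks, and this window also held the longest run of the class, 6 consecutive loci from Tnks to Ppp1r3b. In chr8:126000000-127000000, around Tomm20 and Irf2bp2, 12 of 78 were C57BL/6-only. The most BALB/cJ-only loci in one window were those in chr16:24000000-25000000, with 38 of 73 and 35 nearest to Lpp, which neighbors Bcl6. In chr10:44000000-45000000, 34 of 48 loci were BALB/cJ-only, 27 of them nearest to Prdm1, which encodes the repressor Blimp-1. In chr13:5000000-6000000, all 34 BALB/cJ-only loci of 51 were nearest to Klf6. The longest BALB/cJ-only run, 14 consecutive loci, spanned chr16:65470670-74531990 between Pou1f1 and Robo2. Of 934 windows with at least 10 loci, more than 50% of loci were BALB/cJ-only in 279 and C57BL/6-only in 0. At equal list lengths these were 21 and 20 of 727 windows, so the balance between strains differed with list length. The Klf6 and Lpp windows, with 23 of 40 and 20 of 55 loci BALB/cJ-only, and the Tomm20 window, with 19 of 70 C57BL/6-only, still ranked among the first 3 of their class.

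By chromosome, the C57BL/6-only share was highest on chromosome 8, with 15.3% of 1107 loci (13.3% to 17.5%). Chromosome X stood apart. Of its 343 loci, 69.7% were BALB/cJ-only (64.6% to 74.3%), 24.2% shared and 6.12% C57BL/6-only. It held 0.778% of the C57BL/6 JunB peaks (0.642% to 0.941%) and 1.49% of the BALB/cJ JunB peaks (1.33% to 1.66%). At equal list lengths 42.9% of 182 loci on X were BALB/cJ-only and 24.7% C57BL/6-only. Of these 182, 104 had a C57BL/6 peak and 137 a BALB/cJ peak. The X share of other KLA lists was 1.61% and 1.62% for ATF3, 1.40% and 1.64% for JunD, 1.13% and 1.58% for Fos and 0.915% and 0.831% for Jun, in C57BL/6 and BALB/cJ. For the KLA lists read in C57BL/6 alone it was 0.763% for FosL2, 1.58% for PU.1 and 1.54% for CEBPα.

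**Figure D5:**
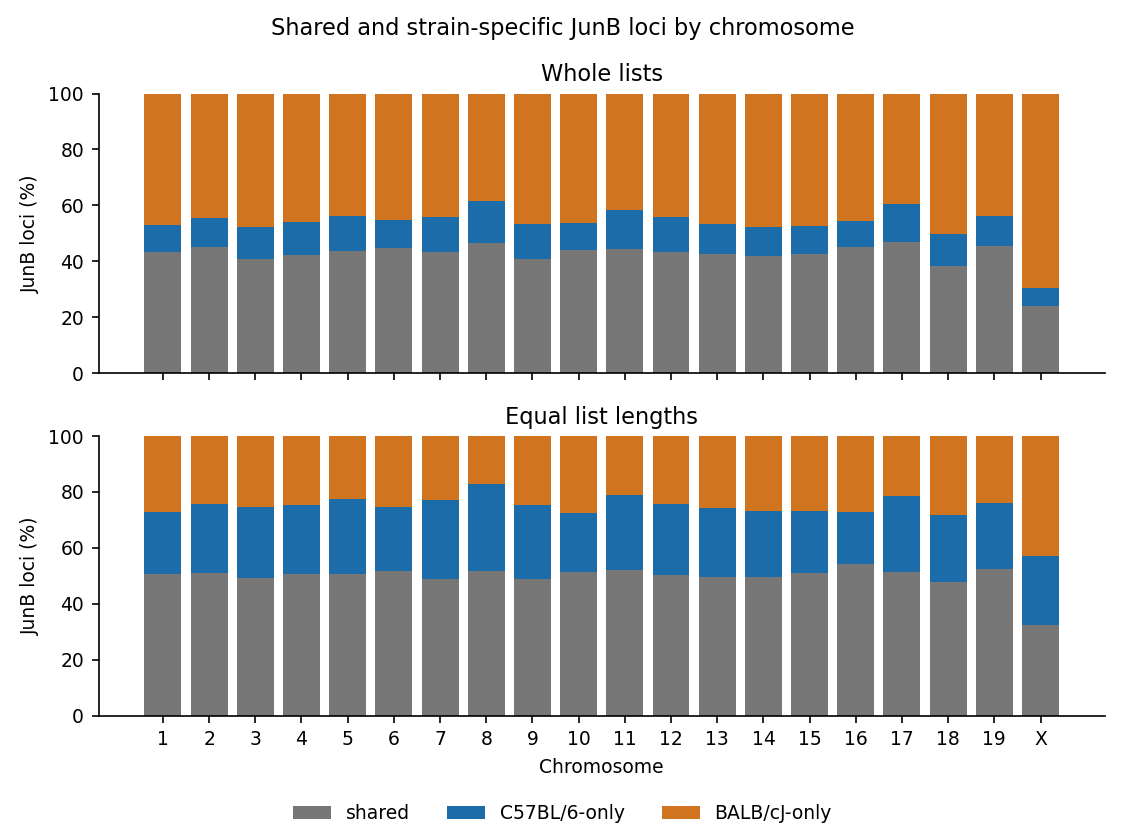
Percentage of JunB loci on each chromosome (x axis) that were shared (grey), C57BL/6-only (blue) or BALB/cJ-only (orange), with whole lists (top) and equal list lengths (bottom). The BALB/cJ-only share on chromosome X is 69.7% with whole lists and 42.9% with equal lengths.

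The TRE was the most frequent of the motifs searched, and strain-specific loci had it less often than shared ones in the reference sequence. Only GRCm38, the C57BL/6J reference, was searched, so a motif present in the BALB/cJ allele alone would be missed. In the central 200 bp, 43.3% of shared loci (42.3% to 44.2%), 32.8% of C57BL/6-only loci (31.1% to 34.6%) and 29.4% of BALB/cJ-only loci (28.5% to 30.2%) held a TRE, against 3.67% of 32544 windows of the same length from RefSeq promoters (GRCm38 table). The difference from shared loci was -10.5 points for C57BL/6-only (-12.4 to -8.46) and -13.9 points for BALB/cJ-only loci (-15.2 to -12.7). The TRE share also rose with rank: among shared loci the TRE share went from 30.3% in the lowest C57BL/6 decile to 64.2% in the highest. BALB/cJ-only loci had the lower TRE share in 10 of 10 BALB/cJ deciles, with 37.9% against 56.7% in the highest. C57BL/6-only loci had the lower share in 8 of 10 C57BL/6 deciles, with 26.0% against 30.3% in the lowest, 43.1% against 40.5% in the seventh and 64.3% (9 of 14 loci) against 64.2% in the highest.

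The CEBP octamers of the reference sequence differed between the strain-specific classes, with BALB/cJ alleles again not read. They were present at 9.41% of BALB/cJ-only loci (8.88% to 9.97%), 5.45% of C57BL/6-only loci (4.67% to 6.36%), 7.98% of shared loci and 2.75% of promoters. BALB/cJ-only exceeded C57BL/6-only loci by 3.96 points (2.91 to 4.92) with whole lists and by 6.03 points (4.87 to 7.20) at equal lengths. In the highest BALB/cJ decile, 17.8% of 169 BALB/cJ-only loci and 8.49% of 2026 shared loci held one. The median GC content moved along with it, at 45.5% for BALB/cJ-only, 50.0% for C57BL/6-only and 48.5% for shared loci, and its part in the result was not tested. CRE matches were present at 6.94%, 6.53% and 5.52% of shared, C57BL/6-only and BALB/cJ-only loci (3.72% of promoters), and ACTTCCT at 19.8%, 18.3% and 20.0% (6.34% of promoters).

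JunB was intermediate among the monomers in how far its sites were shared at equal list lengths. There, 67.2% of C57BL/6 JunB peaks had a BALB/cJ peak, against 77.8% for Fos, 76.4% for ATF3, 73.1% for JunD and 59.3% for Jun. JunB thus lay below Fos by 10.6 points (interval of JunB minus Fos -11.6 to -9.69), below ATF3 (-9.20 points, -10.1 to -8.30) and below JunD (-5.95 points, -6.89 to -5.02), and above Jun by 7.93 points (6.72 to 9.13). With whole lists and the same direction, JunB lay above ATF3 by 2.71 points (1.89 to 3.52) and above JunD by 5.16 points (4.32 to 6.00), so the order with those monomers depends on list length. In the other direction with whole lists, 48.9% of BALB/cJ JunB peaks had a C57BL/6 peak. That was below Fos (53.9%), JunD (69.2%), Jun (71.7%) and ATF3 (76.3%). The equalized lists still differ in length between monomers, from 11317 peaks for Jun to 36745 for ATF3.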

How the data were processed

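ChIP-seq peak lists of TGEMs were used, 21 of them: JunB, ATF3, Jun and JunD with Veh and KLA and Fos with KLA in both strains, and FosL2, PU.1 and CEBPα with KLA in C57BL/6. By the study's methods, reads were aligned by the authors with Bowtie2, those of C57BL/6 to mm10 and those of BALB/cJ to a genome built for that strain, with positions then shifted to mm10. HOMER called peaks relative to input, and peaks with an irreproducible discovery rate (IDR) under 0.05 over replicates were kept. The deposited count of each peak is a whole number that was compared as a rank within its list, and counts printed for both strains are not scaled. An alternative applied the same unscaled cutoff, the pooled median count of 38, to both lists. It kept 5677 C57BL/6 and 12401 BALB/cJ peaks. How the authors combined replicates for the count is not stated in the sources used here. The deposited score is the scaled IDR, 540 to 1000. Each strain and condition has 1 list, so samples were grouped by label and no test across replicates was possible.

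Percentages carry Wilson intervals and differences Newcombe intervals at 95%. Peaks were ranked by count within a list (percentile, ties averaged). Equal list lengths kept the strongest peaks of the longer list. Genes and TSSs came from GENCODE vM21 on GRCm38, the same assembly as mm10, by distance from a locus center. Python 3.11.15, numpy 2.4.6, pandas 2.3.3, scipy 1.17.1, pysam 0.24.0, samtools 1.23.1 and matplotlib 3.10.9 were used, and overlap, TSS distance, motif search and intervals were tested on simulated data. Named loci were the 8 strongest of each strain-specific class, the 5 strongest shared, the 4 with the largest rank difference each way, up to 4 genes of each list with the highest counts, and the 3 windows of 1 Mb with most loci of each strain-specific class; sequences came from the 3 strongest of each class outside exons. Of these, 1 named locus, and 1 marker gene are not reported here. Members and lists were chosen with earlier results of these data known. Alternatives covered list length, overlap rule, score and count cutoffs, TSS set and distance, neighbor gap, ranking and motif window. Some of them (loci above percentile 80, comparison within deciles, Veh peaks, promoter-proximal loci, chromosome X of other monomers) were chosen after seeing the data. The lists of PPARγ, of cells without PPARγ and of Fos, FosL2, PU.1 and CEBPα with Veh were not used.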

Additional observations from a re-analysis of the deposited data

How the results depend on the processing

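Of 70 values recomputed under alternatives, 25 stayed within the interval or 1.5-fold range of the reported value, 43 moved and 2 reversed. The percent of C57BL/6 peaks shared and of BALB/cJ peaks shared was 67.2% and 67.2% at equal list lengths, 76.0% and 46.9% with centers within 100 bp, 76.8% and 47.4% with 50% reciprocal overlap, 88.3% and 44.2% with a stricter score, 86.9% and 53.7% with the strongest 50% of each list, and 92.4% and 42.4% with counts at or above the pooled median. C57BL/6-only and BALB/cJ-only loci numbered 4388 and 4383 at equal lengths, 874 and 5013 with the strongest 50%, and 429 and 7146 above the pooled median, and C57BL/6-only loci 947 with the stricter score. Within 3 kb of a TSS the excess over shared loci was 4.88 points for C57BL/6-only and 5.97 points for BALB/cJ-only loci; within 1 kb the BALB/cJ-only excess was 1.71 points at equal lengths. ATF3 in the strain without a JunB peak under the same setting was at 76.2% and 91.6% (equal lengths) and 63.2% and 76.2% (centers within 100 bp) of C57BL/6-only and BALB/cJ-only loci. The BALB/cJ-only neighbor excess was 2.24 points at 10 kb or more, and rho by score was 0.41. The BALB/cJ-only TRE difference was -11.6 points (equal lengths) and -11.2 points (central 100 bp), and the CEBP difference 6.03 and 2.62 points. List genes with a C57BL/6-only or BALB/cJ-only locus made up 48.5% and 85.7% within 50 kb, and 46.4% and 48.5% at equal lengths. JunB minus ATF3 sharing reversed to -9.20 points and JunB minus JunD to -5.95 points at equal lengths, and JunB minus Jun was 7.93 points. With centers within 100 bp and with reciprocal overlap these were 1.27 and 1.67 points for ATF3, 3.49 and 3.87 points for JunD, and -11.3 and -11.1 points for Fos. The cause was not tested beyond list length, which the alternative itself changes. No paired analysis was possible because each strain has 1 list and no test was run. Replicates could not be left out, since the lists pool them. A missing peak is not absence of binding: it had no peak that passed the IDR threshold, and BALB/cJ alleles, library depth and sub-threshold signal were not analysed here.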

Other observations

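Promoters of the listed genes of all 13 lists, examined after the data were seen, held 129 JunB loci within 1 kb of a TSS over 104 genes. Of these, 60 were shared (46.5%, 38.1% to 55.1%), 14 C57BL/6-only (10.9%) and 55 BALB/cJ-only (42.6%). Of all 2402 promoter-proximal loci, 32.7% were shared, 12.7% C57BL/6-only and 54.6% BALB/cJ-only. By count in C57BL/6, the first of the shared ones lay at Cxcl2 (95 in C57BL/6 and 105 in BALB/cJ), Cd14 (84 and 149), Ccl4 (81 and 122), Nfkbia (80 and 96) and Nfkbie (75 and 79). The BALB/cJ-only ones of highest count lay at Nfkbid (95), which encodes an atypical nuclear IκB protein, at Oasl1 (83), an interferon response gene, and, both with 65, at Clec4e, the Mincle receptor gene, and Il23a. The C57BL/6-only ones had counts of 16 to 41, with 41 at Il23a, 33 at Mafg, 30 at Ccl9, 28 at Tnf and 27 at Nr4a1. At Il23a, separate loci within 1 kb of a TSS were thus listed in each strain.

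A JunB peak center of the other strain lay within 1 kb of 15.9% of the C57BL/6-only loci (14.6% to 17.3%) and of 9.40% of the BALB/cJ-only loci (8.87% to 9.96%), without overlapping them. The median distance was 6.42 kb from C57BL/6-only and 13.1 kb from BALB/cJ-only loci, and the BALB/cJ list is the denser one.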
